A study of Mus musculus with 16 samples.

Results

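The endothelial and mural cell genes are 36 genes, out of 20841 in the table, that mark the cells of brain blood vessels. They were taken by symbol, as the rows of the table whose name is on a list of 24 endothelial and 12 mural genes, and all 36 were found. The rule uses no measured value. Cortex of the right hemisphere was profiled by RNA sequencing of polyA RNA in mice with a forebrain conditional knockout (cKO) of Foxp1, which encodes a forkhead transcription factor, and in control mice. The 4 groups were cKO at postnatal day 7 (P7), control at P7, cKO at the day of birth (P0) and control at P0, with 4 libraries each. The labels name neither the Cre driver, nor the deleted exons, nor the control genotype, and they do not say whether a library came from 1 animal, so the p-values measure the spread between these libraries. Levels are in CPM, reads scaled to the same library total.

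Endothelial cells line the vessel, and in the brain they form the blood-brain barrier: tight junctions close the gaps between them, selective transporters carry nutrients in, and efflux pumps carry foreign compounds out. Vessels grow into the cortex before birth and branch on through the first weeks of life under VEGF and angiopoietin signals. Pericytes and vascular smooth muscle cells, together the mural cells, wrap the endothelium, and pericytes are needed for the barrier to mature. The labels do not say whether the Cre acts in vessel cells. In a bulk sample, fewer vessel cells and less RNA of a gene per vessel cell cannot be told apart.

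Recovered totals were 9858296 to 15335738 reads per P7 library and 17957490 to 18232943 per P0 library, so that a count of 0 allows up to 3 reads, or 0.196 to 0.304 CPM at P7 and 0.165 to 0.167 CPM at P0. Foxp1 stood at 162 to 246 CPM in P7 cKO and 375 to 539 CPM in P7 control cortex, and at 131 to 182 CPM in P0 cKO and 273 to 364 CPM in P0 control cortex. P0 control libraries 2 and 6 stood apart from the other 6 P0 libraries on the first principal component, at 38.1 and 19.5 against -17.9 to -0.443. The P7 libraries were read as 75-base and the P0 libraries as 50-base single ends, on instruments of different makers at different centres. Age, instrument, centre and read length therefore cannot be told apart. Marker sums of 8 cortical neuron genes were 1437 to 1809 CPM at P7 and 3300 to 3992 CPM at P0. Those of 7 choroid plexus genes were 2.60 to 6.33 CPM over all 16 libraries.

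No member was at 0 in all libraries of an age, and 35 of the 36 had reads in every library. The exception was Higd1b, a mitochondrial protein gene used as a pericyte marker, with 0 reads in 1 P7 control library. Summed over the 24 endothelial members, the level was 497 to 551 CPM in P7 cKO and 527 to 549 CPM in P7 control cortex, and 383 to 410 CPM in P0 cKO and 393 to 465 CPM in P0 control cortex. The 12 mural members summed to 377 to 406 CPM in P7 cKO and 389 to 405 CPM in P7 control cortex, and to 196 to 232 CPM in P0 cKO and 199 to 243 CPM in P0 control cortex. The sums of the genotypes overlapped at both ages. Per kilobase of exon, 3 genes led in every group in the same order. Rgs5, a pericyte gene whose product switches off G protein signals, averaged 59.7 CPM per kilobase in P7 cKO and 59.9 in P7 control cortex, and 23.4 in P0 cKO and 24.04 in P0 control cortex. Slco1c1, a thyroid hormone transporter of barrier endothelium and astrocytes, averaged 32.4 CPM per kilobase in P7 cKO and 33.4 in P7 control cortex, and 20.6 in P0 cKO and 23.5 in P0 control cortex. Igfbp7, a secreted matrix protein of vessels, followed at 17.8 CPM per kilobase in P7 cKO and 19.0 in P7 control cortex, and 15.8 in P0 cKO and 17.5 in P0 control cortex. The endothelial surface gene Ly6a, with 0.332 to 0.813 CPM over all 16 libraries, was below the filter on low values (1 CPM or more in 4 or more libraries of a fit) in every comparison.

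**Figure D1:**
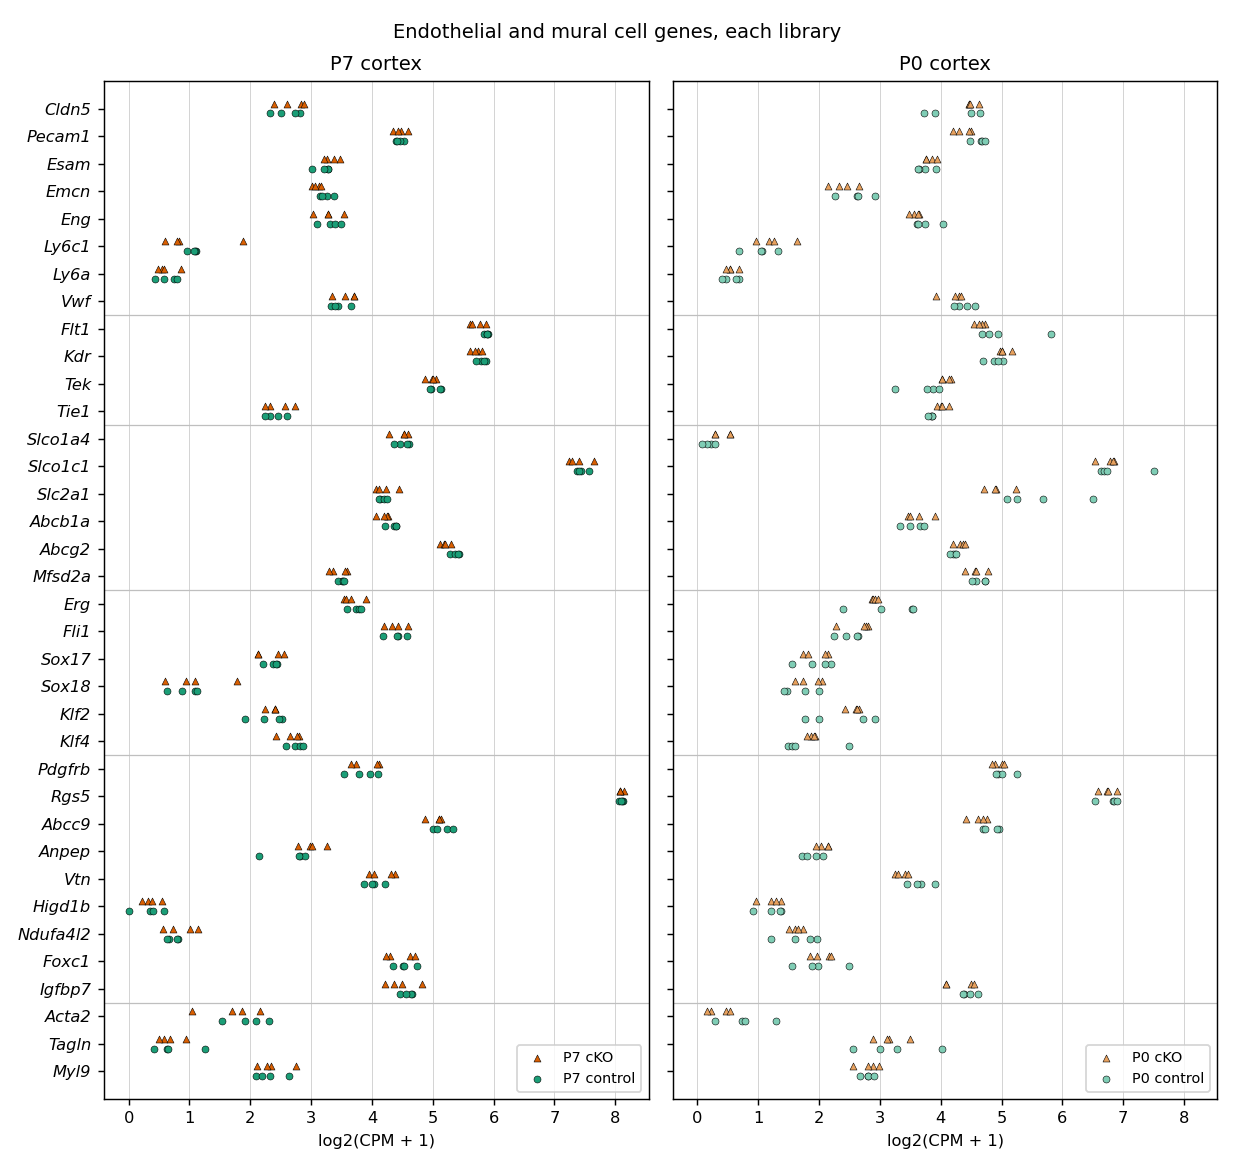
Each point is the log2(CPM + 1) level of a gene in 1 library, with P7 on the left and P0 on the right, triangles for cKO and circles for control (n = 4 each), and grey lines between the role groups. The genotypes overlap for all 36 genes at P7 and for 34 at P0.

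At P7, loss of Foxp1 in the forebrain went with no called change in any vessel gene. Of the 36 members, 32 could be tested, and limma on log2(CPM + 1) called 0, where it called 3.72% of the 12828 genes tested, 1.67% higher and 2.05% lower. A call is an adjusted p (Benjamini-Hochberg, over all genes) under 0.05. edgeR and DESeq2 on the recovered reads also called 0 members, with 463 and 604 genes called over the whole table. At an unadjusted p under 0.05 limma had 2 members, against 14.3% of all genes. In 0 of the 36 did all cKO libraries lie on one side of all control libraries, while 8.88% of all tested genes had groups that did not overlap, 5.11% with cKO above and 3.77% with cKO below. The members' median log2 fold change was -0.04, with 12 positive and 20 negative values, and that of all genes was 0.03. Their median size was 0.07, against 0.08 over all genes. The 95% interval of the difference stayed within 1.5-fold in either direction for 29 of the 32, and for 90.5% of all genes.

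Among the junction and surface genes, Cldn5, which encodes claudin-5, the main tight junction protein of brain endothelium (chromosome 16, 18776847 to 18778262, GRCm38), had 6.13, 6.38, 4.23 and 5.07 CPM in P7 cKO and 3.998, 6.01, 5.67 and 4.70 CPM in P7 control libraries. Its log2 fold change was 0.08, with a 95% interval from -0.24 to 0.40. The adhesion molecule gene Pecam1 had 21.3, 19.2, 20.5 and 23.1 CPM in P7 cKO and 20.1, 22.1, 20.98 and 20.3 CPM in P7 control libraries, a log2 fold change of 0.01 (interval -0.17 to 0.19). The groups overlapped widely in both genes. Esam, an adhesion molecule of endothelial junctions, Emcn, which encodes endomucin, Eng, a co-receptor of TGF-beta, and Vwf, which encodes the clotting factor carrier of that name, had log2 fold changes of 0.13, -0.15, -0.04 and 0.12. The surface antigen gene Ly6c1 had the widest interval of the members at P7, from -0.54 to 0.46, and its 2.69 CPM in cKO library 42 lay above the 0.507 to 1.17 CPM of the other 7 libraries.

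The VEGF and angiopoietin receptor genes were close to control as well. Flt1, the decoy-type VEGF receptor VEGFR1 (chromosome 5, 147561604 to 147726011), had 48.1, 57.8, 54.0 and 49.0 CPM in P7 cKO and 56.1, 59.0, 58.6 and 58.2 CPM in P7 control libraries. Of the cKO values 3 of 4 were below every control value, and the log2 fold change was -0.15 (SE 0.07, limma adjusted p = 0.313). Kdr, the main signalling receptor VEGFR2, averaged 51.7 ± 2.88 CPM in P7 cKO and 54.9 ± 2.75 CPM in P7 control cortex (SD, n = 4 each). Tek, the angiopoietin receptor Tie2 (chromosome 4, 94739289 to 94874976), averaged 30.5 ± 1.61 CPM in P7 cKO and 32.03 ± 2.20 CPM in P7 control cortex. Its co-receptor Tie1 (chromosome 4, 118471191 to 118490061) averaged 4.60 ± 0.89 CPM in P7 cKO and 4.34 ± 0.60 CPM in P7 control cortex. Log2 fold changes of these 3 genes lay between -0.09 and 0.06.

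The lowest adjusted p of a member at P7 was that of Abcg2, an efflux pump of the barrier. It had 38.3, 33.6, 35.2 and 35.8 CPM in P7 cKO and 38.1, 42.2, 40.1 and 41.5 CPM in P7 control libraries. The groups overlapped by 1 library each, and the log2 fold change was -0.18 (SE 0.07, limma adjusted p = 0.222). Abcb1a, the efflux pump P-glycoprotein, averaged 17.3 ± 1.11 CPM in P7 cKO and 19.3 ± 1.16 CPM in P7 control cortex, a log2 fold change of -0.15. Slc2a1, the glucose transporter GLUT1, had 17.7, 15.8, 16.4 and 20.9 CPM in P7 cKO and 16.5, 16.4, 17.3 and 17.99 CPM in P7 control libraries, a log2 fold change of 0.05 (interval -0.16 to 0.25). Mfsd2a, the transporter of lipid-bound omega-3 fatty acid that restrains transcytosis, Slco1a4, an organic anion transporter, and Slco1c1 had log2 fold changes of -0.06, -0.02 and -0.05. The interval of Abcg2 ran from -0.32 to -0.03, and those of the other 5 transporters included 0.

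The endothelial transcription factors at P7 had log2 fold changes from -0.10 to 0.18. The ETS factor genes Erg and Fli1 averaged 11.8 ± 1.503 and 20.1 ± 2.46 CPM in P7 cKO cortex, against 12.3 ± 0.91 and 20.2 ± 2.27 CPM in P7 control cortex. Sox17, an arterial factor gene, averaged 4.02 ± 0.77 CPM in P7 cKO and 4.15 ± 0.37 CPM in P7 control cortex. Its relative Sox18 averaged 1.25 ± 0.83 CPM in P7 cKO and 0.92 ± 0.29 CPM in P7 control cortex. Klf2 and Klf4, which respond to blood flow, averaged 4.16 ± 0.27 and 5.34 ± 0.71 CPM in P7 cKO cortex, against 3.92 ± 0.89 and 5.77 ± 0.56 CPM in P7 control cortex.

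The pericyte gene Rgs5 (chromosome 1, 169655501 to 169695813) was the most tightly measured member. It had 281, 268, 268 and 268 CPM in P7 cKO and 277, 275, 265 and 273 CPM in P7 control libraries. The log2 fold change was -0.01, and its interval of -0.10 to 0.08 was the narrowest of the 32. Pdgfrb, the receptor through which endothelial PDGF recruits pericytes, averaged 14.1 ± 2.45 CPM in P7 cKO and 13.5 ± 2.32 CPM in P7 control cortex. Abcc9, a subunit of the ATP-sensitive potassium channel, averaged 32.3 ± 2.65 CPM in P7 cKO and 34.9 ± 3.70 CPM in P7 control cortex. Anpep, which encodes aminopeptidase N (CD13), had the largest log2 fold change of the members at P7. It had 6.91, 8.57, 7.08 and 5.88 CPM in P7 cKO and 3.41, 6.01, 6.48 and 5.95 CPM in P7 control libraries, with 0.35 on the log2 scale (SE 0.17, limma adjusted p = 0.370). Its groups overlapped, and control library 43 was the lowest of the 8. Vtn, which encodes the matrix protein vitronectin, the forkhead gene Foxc1 and Igfbp7 had log2 fold changes of 0.14, -0.06 and -0.11.

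The smooth muscle genes had few reads at P7. Acta2, smooth muscle actin, had 3.46, 2.27, 1.06 and 2.64 CPM in P7 cKO and 2.75, 1.91, 3.97 and 3.25 CPM in P7 control libraries, a log2 fold change of -0.27 with an interval from -0.75 to 0.21. Myl9, a myosin light chain gene, had a log2 fold change of 0.06. Tagln, which encodes transgelin, did not pass the filter at P7 and averaged 0.61 ± 0.22 CPM in P7 cKO and 0.71 ± 0.46 CPM in P7 control cortex. Of the Tagln exon bases 67.9% lie under genes of the opposite strand, and the counting is not stated to use strand, so its reads are uncertain. Tagln is 1 of 8 members with such overlap. Among the others, the share was 16.8% for Sox17, 10.1% for Abcb1a and 7.03% for Igfbp7, and the same limit applies to them in part. The pericyte genes Higd1b and Ndufa4l2 did not pass the filter at P7 either, with 0 to 0.4997 and 0.488 to 1.22 CPM over the 8 libraries.

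**Figure D2:**
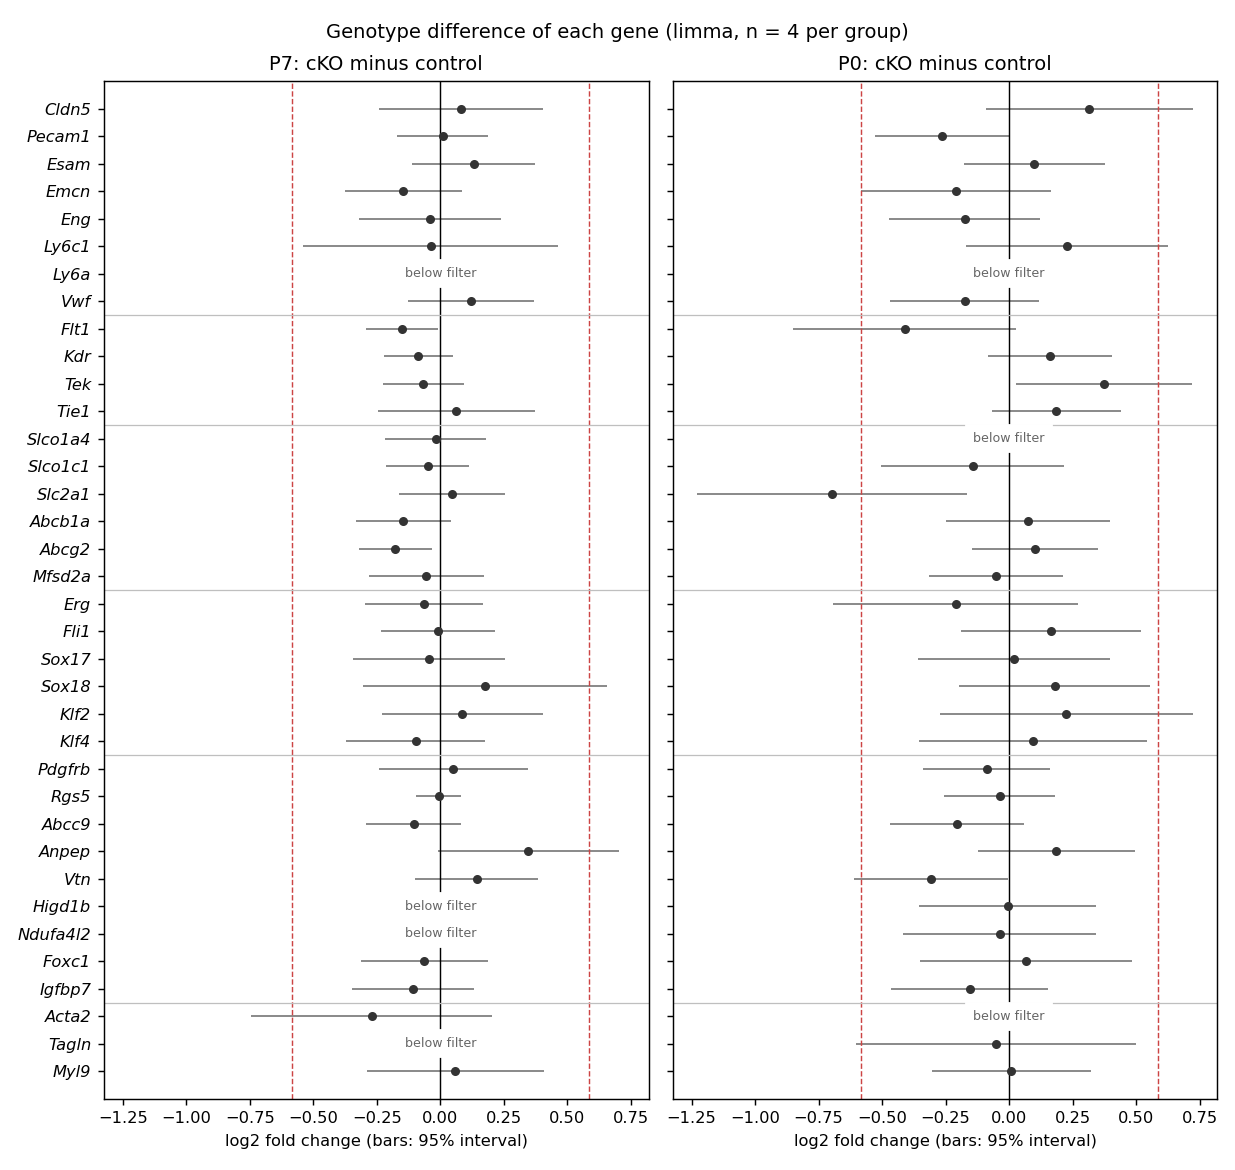
Each dot is the limma log2 fold change (cKO minus control, n = 4 each) of a gene at P7 on the left and P0 on the right, bars are 95% intervals, and dashed lines mark a 1.5-fold difference. The intervals of 29 of 32 genes at P7 and 24 of 33 at P0 lie between the dashed lines, and Slc2a1 lies farthest from 0 at P0.

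Genes of the signals that act on vessels, from lists other than the members, held the called changes near this system at P7. Of 20 genes of vessel growth signalling 2 were higher in cKO cortex and 0 lower. Angpt1, the main activating ligand of the Tek receptor, had 64.9, 60.3, 62.0 and 58.7 CPM in P7 cKO and 45.1, 50.2, 47.95 and 49.8 CPM in P7 control libraries. Every cKO value was above every control value, and the log2 fold change was 0.34 (SE 0.06, limma adjusted p = 0.00425). Efnb2, the ligand ephrin-B2 found on arterial endothelium and on neurons, had 165, 137, 148 and 133 CPM in P7 cKO and 117, 108, 109 and 117 CPM in P7 control libraries. Its groups did not overlap either, and the log2 fold change was 0.36 (SE 0.06, limma adjusted p = 0.00414). Neither gene is particular to vessel cells. Over all genes 1.67% were called higher. Of 12 genes of the Wnt signal that induces the barrier, of 21 other endothelial genes and of 15 other mural genes limma called 0, with 3, 2 and 1 at an unadjusted p under 0.05. Among 12 meningeal and perivascular fibroblast markers, Lum was lower, at 3.20, 3.61, 2.36 and 2.74 CPM in P7 cKO and 3.91, 7.45, 5.10 and 6.64 CPM in P7 control libraries (log2 fold change -0.75, SE 0.17, limma adjusted p = 0.0246). The sum of those 12 markers was 264 to 319 CPM in P7 cKO and 225 to 320 CPM in P7 control cortex. Astrocyte markers, 8 genes, summed to 3159 to 3593 CPM in P7 cKO and 3551 to 3856 CPM in P7 control cortex, and 1 of them, the glutamate transporter gene Slc1a2, was lower (log2 fold change -0.27, limma adjusted p = 0.0246). The sum is carried by the highest genes. Of the 8 markers 5 had a positive and 3 a negative log2 fold change, with a median of 0.09. The part of these other cells in the values of the vessel genes was not tested.

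At P0 the members were again not called, with more spread. Limma called 0 of the 33 tested, against 0.254% of 12580 genes (0.183% higher and 0.0715% lower), and at an unadjusted p under 0.05 it had 4 members, against 18.1% of all genes. edgeR called 0 members, with 30 genes over the whole table, and DESeq2 called 1, Slc2a1, with 429 genes over the whole table. The median log2 fold change was -0.01, with 16 positive and 17 negative values, against 0.01 over all genes, and the median size was 0.17 against 0.15. Intervals stayed within 1.5-fold for 24 of the 33, against 72.9% of all genes. All cKO libraries were above all control libraries for Tek and Tie1, and below them for 0 members, while 9.86% of all tested genes had groups that did not overlap, 5.37% with cKO above and 4.5% with cKO below.

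Slc2a1 had the largest difference of any member at P0. It had 36.6, 25.2, 28.9 and 28.5 CPM in P0 cKO and 50.3, 37.0, 32.9 and 89.8 CPM in P0 control libraries. The cKO values were low and close together, the control values were spread, and 1 cKO library lay above the lowest control. The log2 fold change was -0.70 (SE 0.25, limma adjusted p = 0.197, interval -1.23 to -0.16). DESeq2 gave -0.84 (adjusted p = 0.0463), and called 429 genes over the whole table. In 1 limma fit over all 16 libraries the adjusted p was 0.0496, with 794 genes called over the whole table. Over all alternatives the log2 fold change ran from -0.88 to -0.40 and the adjusted p from 0.0463 to 0.415. Without control library 6 the log2 fold change was -0.40 (limma adjusted p = 0.244). The call thus depended on the tool and on the libraries fitted, and the size on library 6.

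Flt1 had 25.5, 24.7, 22.4 and 23.7 CPM in P0 cKO and 29.8, 24.6, 26.7 and 55.4 CPM in P0 control libraries. Control library 6 was again far above the rest, and the log2 fold change of -0.41 (SE 0.20, limma adjusted p = 0.303) was -0.16 without it. Klf4 had 2.82, 2.66, 2.49 and 2.77 CPM in P0 cKO and 1.81, 1.94, 2.04 and 4.62 CPM in P0 control libraries. Here all 4 cKO values lay above the 3 other control values and below that of library 6, so that the log2 fold change was 0.09 with library 6 and 0.33 without it (limma adjusted p = 0.828 and 0.254). Vegfa, the ligand of Flt1 and Kdr, which is no member, showed the same library on top, with 55.0, 62.9, 57.7 and 50.9 CPM in P0 cKO and 75.3, 49.4, 57.3 and 97.3 CPM in P0 control libraries. Of the 22 members averaging 5 CPM or more at P0, control library 6 was the highest of the 8 libraries for 8 and the lowest for 8. The other 7 libraries were highest or lowest for 1 to 6 members each.

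Slc2a1, Flt1 and Klf4 were picked, after their values were seen, for the high value in control library 6. That library was also the highest at P0 for Pecam1, Emcn, Eng, Pdgfrb, Rgs5, Vtn, Igfbp7, Foxc1 and Acta2. It was the lowest for 8 of the 22 members averaging 5 CPM or more. The cause of its values was not tested. The promoters of Slc2a1, Flt1 and Klf4 are shown beside each other. The windows are those of RefSeq on GRCm38.p6, from 250 bases before to 50 bases after the start, given 5′ to 3′ on the gene's strand. Such windows were on hand for 25 of the 36 members. They were searched on both strands for ACGTG, the core that hypoxia-inducible factors bind, and capitals mark its matches. Slc2a1 lies on the plus strand at chr4:119108495-119108794, Flt1 on the minus strand at chr5:147725962-147726261 and Klf4 on the minus strand at chr4:55532426-55532725.
Slc2a1: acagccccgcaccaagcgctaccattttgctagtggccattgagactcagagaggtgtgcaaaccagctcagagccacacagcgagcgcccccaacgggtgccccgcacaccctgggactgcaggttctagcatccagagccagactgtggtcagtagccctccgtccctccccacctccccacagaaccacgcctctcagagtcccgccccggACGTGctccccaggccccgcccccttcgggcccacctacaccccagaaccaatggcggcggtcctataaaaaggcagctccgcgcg
Flt1: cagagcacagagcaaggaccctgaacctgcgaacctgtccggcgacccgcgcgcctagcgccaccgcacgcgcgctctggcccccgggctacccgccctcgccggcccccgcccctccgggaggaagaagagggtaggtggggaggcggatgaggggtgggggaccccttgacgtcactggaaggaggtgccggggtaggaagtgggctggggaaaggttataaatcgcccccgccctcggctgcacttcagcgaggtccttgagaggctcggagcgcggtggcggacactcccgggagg
Klf4: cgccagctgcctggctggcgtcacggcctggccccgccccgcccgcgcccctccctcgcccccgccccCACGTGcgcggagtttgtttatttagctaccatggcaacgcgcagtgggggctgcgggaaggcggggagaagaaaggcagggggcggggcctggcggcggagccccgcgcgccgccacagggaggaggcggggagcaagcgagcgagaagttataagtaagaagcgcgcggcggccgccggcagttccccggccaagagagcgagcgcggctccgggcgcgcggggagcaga
The Slc2a1 window held 1 match, that of Klf4 held 2 that overlap within CACGTG, and that of Flt1 held none. Over the members, 5 of 25 windows held ACGTG, which are those of Slc2a1, Klf4, Igfbp7, Mfsd2a and Slco1c1, against 21.8% of 27025 gene windows. The forkhead core TGTTTAC was in 1 of the 25, that of Abcb1a, against 4.05% of all windows. The Abcb1a window lies 92986 bases from the start that GENCODE gives for the gene, and that of Anpep 12849 bases. The CArG box of smooth muscle genes was in 1 of the 25, that of Myl9, against 1.81%. A match is a match of letters and not a measured binding site.

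Of the 36 members, 2 had all P0 cKO values above all P0 control values, Tek and Tie1. Over all tested genes 5.37% did so, a share near that of the members, so the pair is a description only. Tek had 17.0, 15.3, 15.3 and 16.6 CPM in P0 cKO and 13.7, 12.7, 14.6 and 8.46 CPM in P0 control libraries. All cKO values were above all control values, library 6 was the lowest, and the log2 fold change of 0.37 (SE 0.16, limma adjusted p = 0.253) was 0.22 without that library. Tie1 had 15.1, 14.3, 16.5 and 15.3 CPM in P0 cKO and 13.4, 13.5, 13.5 and 12.8 CPM in P0 control libraries. It differed by 0.19 on the log2 scale (SE 0.12, limma adjusted p = 0.408), and by 0.17 without library 6. Kdr had 30.5, 31.1, 31.2 and 35.2 CPM in P0 cKO and 31.6, 28.2, 29.6 and 25.0 CPM in P0 control libraries, with a log2 fold change of 0.16 (SE 0.11). None of the 4 receptors passed. Angpt1 had 27.5, 27.96, 26.6 and 30.6 CPM in P0 cKO and 16.5, 12.3, 23.0 and 22.2 CPM in P0 control libraries, and did not pass either (log2 fold change 0.62, SE 0.17, limma adjusted p = 0.131).

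**Figure D3:**
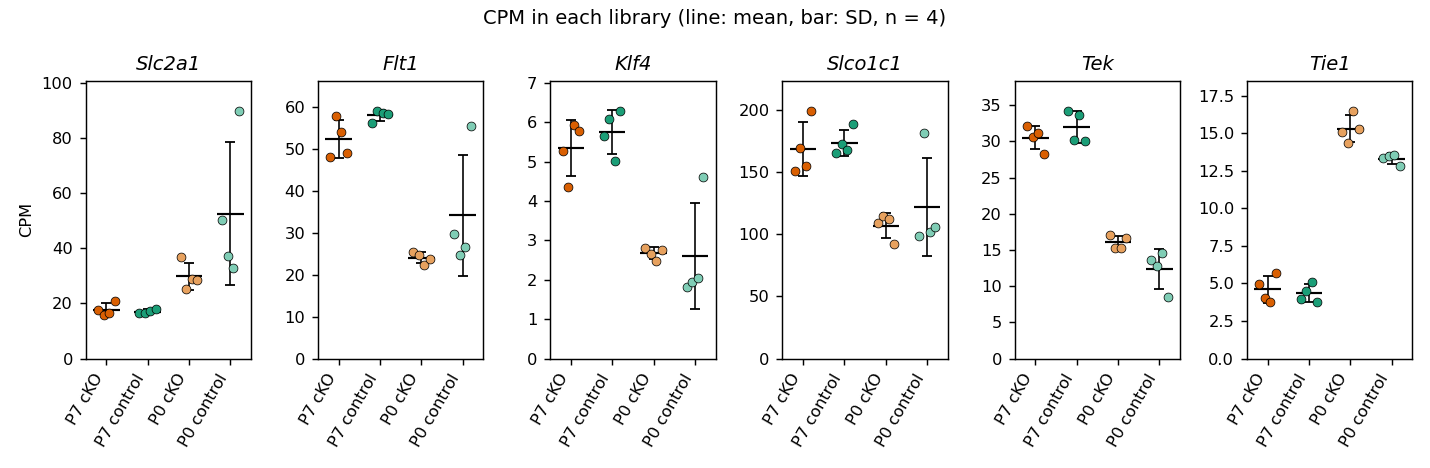
CPM of 6 genes in each library by group, with a line at the mean and a bar for the SD (n = 4). Slc2a1, Flt1 and Klf4 have 1 high P0 control library (89.8, 55.4 and 4.62 CPM), Slco1c1 has another (181 CPM), and the P0 cKO values of Tek and Tie1 lie above all P0 control values.

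The other members at P0 differed in both directions. Cldn5 had 21.1, 20.98, 21.4 and 23.6 CPM in P0 cKO and 21.6, 13.95, 24.04 and 12.2 CPM in P0 control libraries, where libraries 2 and 6 were the low pair. Its log2 fold change was 0.32 (SE 0.19, limma adjusted p = 0.383), and -0.06 without both. Erg had 6.30, 6.42, 6.53 and 6.80 CPM in P0 cKO and 10.5, 10.7, 7.13 and 4.23 CPM in P0 control libraries, with the cKO values inside the control range. Pecam1 averaged 19.7 ± 2.02 CPM in P0 cKO and 23.9 ± 1.84 CPM in P0 control cortex (log2 fold change -0.26, SE 0.12, limma adjusted p = 0.276). Vtn averaged 9.25 ± 0.71 CPM in P0 cKO and 11.7 ± 1.68 CPM in P0 control cortex (log2 fold change -0.31, SE 0.14, limma adjusted p = 0.272). In both genes 1 or more control libraries lay within the cKO range. Slco1c1 had 109, 114, 112 and 91.7 CPM in P0 cKO and 98.6, 181, 102 and 106 CPM in P0 control libraries, where library 2 was high. Its log2 fold change was -0.14, and 0.06 without that library. The log2 fold changes of Abcb1a, Abcg2 and Mfsd2a were 0.07, 0.10 and -0.05. Those of Esam, Emcn, Eng, Ly6c1 and Vwf ran from -0.21 to 0.23, and those of Fli1, Sox17, Sox18 and Klf2 from 0.02 to 0.23.

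Among mural genes at P0, Rgs5 had 95.6, 105, 118 and 107 CPM in P0 cKO and 113, 114, 92.1 and 118 CPM in P0 control libraries, a log2 fold change of -0.04 with the narrowest interval at that age, -0.26 to 0.18. Pdgfrb averaged 29.8 ± 2.02 CPM in P0 cKO and 31.8 ± 3.82 CPM in P0 control cortex. Abcc9, Anpep, Higd1b, Ndufa4l2, Foxc1 and Igfbp7 had log2 fold changes from -0.20 to 0.19. Tagln averaged 8.05 ± 1.61 CPM in P0 cKO and 8.94 ± 4.43 CPM in P0 control cortex, and its interval of -0.60 to 0.50 was the widest at that age. Myl9 averaged 6.04 ± 0.88 CPM in P0 cKO and 5.97 ± 0.47 CPM in P0 control cortex. Acta2 and Slco1a4 did not pass the filter, with 2 to 8 and 4 to 8 reads in P0 cKO libraries and 4 to 26 and 1 to 4 reads in P0 control libraries. Of the other lists at P0, 0 of 19 vessel growth, 0 of 12 barrier Wnt, 0 of 21 other endothelial and 0 of 16 other mural genes were called, with 4, 1, 4 and 1 at an unadjusted p under 0.05. Microglia and macrophage markers, 11 genes, summed to 48.7 to 57.8 CPM in P0 cKO and 41.03 to 47.1 CPM in P0 control cortex, and those of red blood cells, 7 genes, to 15.9 to 20.4 CPM in P0 cKO and 20.9 to 29.1 CPM in P0 control cortex. Neither pair of ranges overlapped, as was so for 9.86% of single genes over the table. Limma called 0 of the 8 microglia and macrophage markers tested (lowest adjusted p = 0.156). It also called 0 of the 4 red blood cell markers tested (lowest limma adjusted p = 0.232). Astrocyte markers, 8 genes, summed to 541 to 605 CPM in P0 cKO and 442 to 547 CPM in P0 control cortex. Of the 7 tested 6 had a positive log2 fold change, with a median of 0.22, and limma called 0 (lowest adjusted p = 0.0612), with 3 at an unadjusted p under 0.05. The part of these cells in the vessel values, that of Slco1c1 included, was not tested.

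The genotype difference was not shown to depend on age for any vessel gene. In 1 fit over all 16 libraries, the interaction (difference at P7 minus difference at P0) was called for 0 of 35 members, against 0.751% of 13444 genes (0.305% higher and 0.446% lower). Both edgeR and DESeq2 called 0 members, with 103 and 285 genes called over the whole table. Before adjustment, p was under 0.05 for 4 members, against 15.6% of all genes. These were Slc2a1 at 0.74 (SE 0.29, limma adjusted p = 0.243), Vtn at 0.45 (SE 0.18, limma adjusted p = 0.246), Tek at -0.44 (SE 0.18, limma adjusted p = 0.257) and Abcg2 at -0.28 (SE 0.12, limma adjusted p = 0.274). Without P0 control library 6 the interaction was 0.45 for Slc2a1 (limma adjusted p = 0.246) and -0.28 for Tek (limma adjusted p = 0.277). Each shares its P0 control libraries with the P0 comparison and its P7 libraries with the P7 comparison. The interval stayed within 1.5-fold for 17 of the 35, against 56.6% of all genes.

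Between the ages the vessel genes differed widely, as did most of the table. In control cortex at P7 against P0, limma called 31 of 35 members, against 82.5% of 13444 genes, a share near the background. Of the members 18 were higher at P7 and 13 lower, where over all genes 35.1% were higher and 47.3% lower. The member counts include Slco1a4 and Acta2 among the higher and Tagln, Higd1b and Ndufa4l2 among the lower. These passed the filter at 1 age alone, so that a difference between the ages was built in for them. The median log2 fold change was 0.34 over the members and -0.19 over all genes. With scaling by medians of ratios the median of all genes was 0.01, with 19 members higher and 11 lower. The split followed no role group as a whole. In the libraries themselves, P7 control values lay above all P0 control values for 16 members and below them for 13, where 74.4% of all genes did not overlap (31.2% above and 43.3% below). P7 cKO values lay above all P0 cKO values for 17 members and below them for 11, where 79.2% of all genes did not overlap (34.0% above and 45.2% below). These 2 comparisons share no library, but both carry the same split of instrument, centre and read length. Both placed 15 members above and 10 below, and 0 members lay above in 1 genotype and below in the other. The genes with a difference built in are among them. The share of all genes placed alike in both genotypes was not counted, so this agreement is not read as a trait of the members.

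Among the receptors, Tek was higher at P7, with 34.2, 30.2, 33.6 and 30.1 CPM in P7 control and 8.46 to 14.6 CPM in P0 control libraries (log2 fold change 1.33, SE 0.12, limma adjusted p = 3.86e-09). Kdr and Flt1 were higher as well, by 0.92 and 0.82 on the log2 scale. For Flt1, the 55.4 CPM of P0 control library 6 lay close to the 56.1 to 59.0 CPM of P7 control libraries. Tie1 was lower, at 3.998, 4.51, 5.10 and 3.74 CPM in P7 control and 13.4, 13.5, 13.5 and 12.8 CPM in P0 control libraries (log2 fold change -1.43, SE 0.12, limma adjusted p = 9.4e-10). The ratio of mean CPM at P7 over P0 was 2.59 for Tek and 0.326 for Tie1 in control cortex, and 1.90 for Tek and 0.301 for Tie1 in cKO cortex. A receptor and its co-receptor thus lay on opposite sides of 1 in both genotypes.

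The transporters split in the same way. Slco1a4 had 283, 262, 286 and 218 reads in P7 cKO and 282, 333, 259 and 284 reads in P7 control libraries, but 4, 8, 8 and 4 reads in P0 cKO and 3, 2, 1 and 4 reads in P0 control libraries. Since the P0 control values are at or near 3 reads, no fold is given. Of the genes averaging 5 CPM or more at P7, 142 were listed at 0 in all 8 P0 libraries, among them B2m and Eif2s2, which nearly every cell uses. In the other direction there were 4 such genes. The part of this in the Slco1a4 value was not tested. Abcg2 was higher by 1.16, Abcb1a by 0.79 and Slco1c1 by 0.55 on the log2 scale. Slc2a1 was lower, at 16.4 to 17.99 CPM in P7 control and 32.9 to 89.8 CPM in P0 control libraries (log2 fold change -1.46, SE 0.20, limma adjusted p = 1.49e-06), and -1.16 without P0 control library 6. Mfsd2a was lower too, at 10.4, 9.84, 10.5 and 10.6 CPM in P7 control and 22.9, 21.8, 25.4 and 25.4 CPM in P0 control libraries, a log2 fold change of -1.13 (SE 0.11). Its ratio of mean CPM at P7 over P0 was 0.433 in control and 0.431 in cKO cortex.

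Of the junction and surface genes 1 was higher at P7, Emcn by 0.63, and 4 were lower. Cldn5 was lower by the most, at 3.998, 6.01, 5.67 and 4.70 CPM in P7 control and 21.6, 13.95, 24.04 and 12.2 CPM in P0 control libraries (log2 fold change -1.60, SE 0.18, limma adjusted p = 4.95e-08). Vwf, Esam and Eng had log2 fold changes of -0.92, -0.53 and -0.43. The call of Eng was lost in 4 alternatives, medians of ratios, edgeR, DESeq2 and the fit without P0 control libraries 2 and 6, with adjusted p from 0.0649 to 0.118. Pecam1 and Ly6c1 were not called, at -0.18 and 0.03.

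Of the transcription factors 4 were higher at P7, Fli1 by 1.92, Klf4 by 0.97, Erg by 0.61 and Sox17 by 0.43 on the log2 scale. Fli1 had 17.2, 20.6, 22.8 and 20.4 CPM in P7 control and 5.21, 4.43, 5.19 and 3.73 CPM in P0 control libraries. Erg, its relative, averaged 12.3 ± 0.91 CPM in P7 control and 8.13 ± 3.07 CPM in P0 control cortex. Sox18 was lower, with a log2 fold change of -0.73, and Klf2 was not called (-0.07). Without P0 control library 6 the log2 fold change of Erg was 0.37 (limma adjusted p = 0.0168). The call of Sox17 was lost without P0 control library 2 (limma adjusted p = 0.0641) and without libraries 2 and 6 (limma adjusted p = 0.222).

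Of the pericyte genes 5 were higher and 3 lower at P7. Rgs5 had 277, 275, 265 and 273 CPM in P7 control and 113, 114, 92.1 and 118 CPM in P0 control libraries (log2 fold change 1.32, SE 0.08, limma adjusted p = 1.73e-12). Pdgfrb was lower, at 10.7, 16.1, 14.6 and 12.9 CPM in P7 control and 29.7, 31.2, 29.0 and 37.4 CPM in P0 control libraries (log2 fold change -1.18, SE 0.13). These 2 widely used pericyte markers thus lay on opposite sides. Foxc1, a forkhead factor gene of pericytes and of meningeal fibroblasts, had the largest rise of the mural members, with 19.3, 21.9, 22.0 and 25.6 CPM in P7 control and 2.96, 2.71, 1.93 and 4.62 CPM in P0 control libraries (log2 fold change 2.55, SE 0.17). Meningeal and perivascular fibroblast markers moved with it. Of these 12, 11 were higher at P7 and 1 lower, and their sum was 225 to 320 CPM in P7 control and 11.6 to 15.2 CPM in P0 control cortex. Ogn, which is on that list, was among the genes listed at 0 in all P0 libraries. Their part in the Foxc1 value was not tested. Anpep, Vtn and Abcc9 were higher by 0.78, 0.37 and 0.34, and Ndufa4l2 and Higd1b had log2 fold changes of -0.94 and -0.88. Igfbp7 was not called, at 0.12, but was at 0.33 with medians of ratios (limma adjusted p = 0.0333), edgeR (adjusted p = 0.0376) and, at 0.36, DESeq2 (adjusted p = 0.0206).

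Each of the 3 smooth muscle genes was called for age, with limits on all of them. Acta2 was higher at P7, at 2.75, 1.91, 3.97 and 3.25 CPM in P7 control and 0.658, 0.221, 0.718 and 1.45 CPM in P0 control libraries (log2 fold change 1.19, SE 0.22, limma adjusted p = 5.98e-05). Tagln was lower, at 0.333, 0.547, 0.567 and 1.38 CPM in P7 control and 7.02, 15.2, 8.68 and 4.90 CPM in P0 control libraries (log2 fold change -2.48, SE 0.24, limma adjusted p = 4.53e-09), with the opposite-strand reads named above uncertain. Myl9 was lower with a log2 fold change of -0.49, a call lost with medians of ratios, edgeR and DESeq2 (adjusted p from 0.0624 to 0.111). Acta2, Slco1a4, Tagln, Higd1b and Ndufa4l2 passed the filter at 1 age alone, so that a difference between the ages was built in for them, and the opposite directions of Acta2 and Tagln are a description only.

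The base composition of the transcripts moved with the age difference. Over 13117 genes with a known GC content, Spearman's rho between the GC content of the longest transcript and the age log2 fold change was -0.52, and over the 35 members it was -0.62. These are descriptions across genes, which share the same libraries. In the 2624 genes with the lowest GC content (31.0% to 43.9%) the median log2 fold change of all genes was 0.51, and in the 2624 with the highest (55.5% to 71.3%) it was -1.34. Of the 5 members among the lowest 5 were higher, and of the 10 among the highest 1 was higher, Foxc1, and 7 were lower. From 43.9% to 47.9% the median of all genes was 0.24, and 4 of 4 members were higher. From 47.9% to 51.6% it was -0.17, and of 6 members 4 were higher and 0 lower. In the 2623 genes next below the highest (51.6% to 55.5%) the median was -0.66, and of 10 members there 4 were higher and 6 lower. The higher ones in that range were Sox17 (52.6%), Anpep (53.3%), Klf4 (54.6%) and Vtn (55.3%). The lower ones were Higd1b (52.4%), Tagln (52.5%), Esam (53.7%), Slc2a1 (54.0%), Mfsd2a (54.2%) and Pdgfrb (54.9%). The pairs named above as lying on opposite sides also differed in GC content. Tek had 47.1% and Tie1 57.6%, and Rgs5 had 41.1% and Pdgfrb 54.9%. These counts include Acta2, Slco1a4, Tagln, Higd1b and Ndufa4l2, which passed the filter at 1 age alone. The part of base composition in the age differences was not tested.

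**Figure D4:**
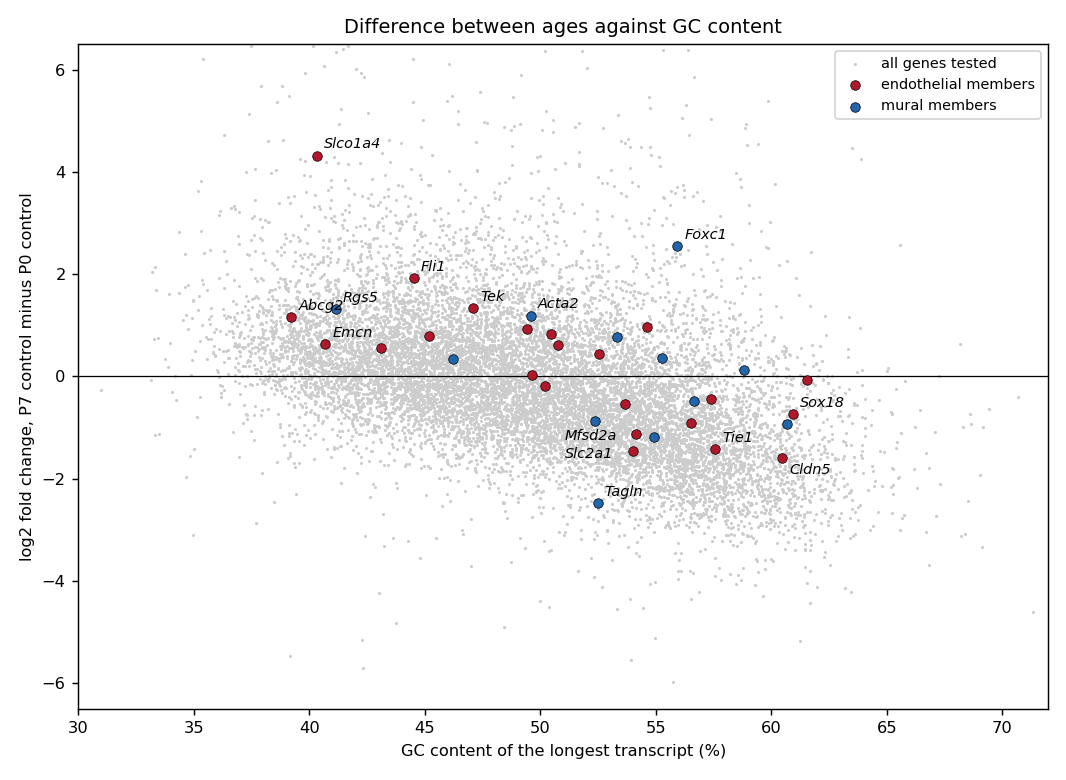
Each point is a gene, with the GC content of its longest transcript in percent on the horizontal axis and its log2 fold change, P7 control minus P0 control, on the vertical axis (29 genes lie outside the plotted range). Red points are endothelial and blue points mural members, over all genes in grey. Most members lie within the downward cloud of all genes, with Slco1a4 and Foxc1 (2.55) toward its upper edge and Tagln (-2.48) toward its lower edge. Slco1a4 had 1 to 4 reads in P0 control libraries, so no fold is given and its height is uncertain.

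The other lists of vessel genes were called for age about as often as the 82.5% of all genes. Of 20 vessel growth genes 5 were higher and 10 lower at P7, and of 12 barrier Wnt genes 2 were higher and 7 lower. Wnt7b, a neural ligand of barrier induction, had 11.5, 16.5, 12.5 and 11.97 CPM in P7 control and 192, 201, 189 and 209 CPM in P0 control libraries (log2 fold change -3.83, SE 0.10). Wnt7a, its partner ligand, had a log2 fold change of -1.77 (SE 0.18). Angpt1 was higher, at 45.1 to 50.2 CPM in P7 control and 12.3 to 23.0 CPM in P0 control libraries, a log2 fold change of 1.37 (SE 0.13). Both the Tek receptor and its ligand were thus higher at P7. Notch4, an endothelial Notch receptor gene, had 2.03 to 2.91 CPM in P7 control and 108 to 142 CPM in P0 control libraries. Over the table, 49 genes averaged under 0.5 CPM at P7 and 5 CPM or more at P0, and 187 the reverse. The part of this in the Notch4 value was not tested, and the overlap of its exons with other genes is not reported here. Of 23 other endothelial genes 12 were higher and 8 lower, among them Cdh5, VE-cadherin, with 27.5 to 30.7 CPM in P7 control and 18.04 to 19.6 CPM in P0 control libraries (log2 fold change 0.61, SE 0.09). Of 17 other mural genes 6 were higher and 7 lower.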

How the data were processed

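The deposited table holds CPM values per gene and library, which the authors scaled to the library total. STAR, HTSeq and edgeR, with the builds mm10 and GRCm38, are credited to the submitters' processing notes, without versions. Within 0.01 read, 100% of the values were whole multiples of 1 read, so read totals were recovered. The table's genes held 95.9% to 96.6% of each total. Each age was fitted over 8 libraries on the log2(CPM + 1) scale (limma 3.58.1, R 4.3.3, eBayes with a trend), which understates the change of low genes. The interaction and the age difference came from 1 fit of 16 libraries. Genes with 1 CPM or more in 4 or more libraries entered, and calls used a Benjamini-Hochberg threshold of 0.05 over all of them. edgeR 4.0.16 and DESeq2 1.42.0 on recovered reads, and other settings, were alternatives. edgeR called 463 genes at P7 and 30 at P0, and DESeq2 called 604 at P7 and 429 at P0. The limma and edgeR tests of the genotype difference at each age were checked on simulated counts, with the same independent noise for every gene. The check did not cover DESeq2, the interaction, the age difference or shifts shared by a whole library. Exon lengths, GC content and positions come from GENCODE M21, promoters from RefSeq. Limits for a count of 0 cover counting error only. Replicates of a group had a chi-square per gene of 2.68 to 39.4. The members and lists were chosen with earlier results of these data known. All 36 members are reported. Of the other lists only some called genes are named, and calls for age are mostly given as counts. Not named are 1 cortical neuron marker lower in cKO at P7 (limma adjusted p = 0.0319) and 1 astrocyte marker lower in the interaction (limma adjusted p = 0.0294). Vegfa, Angpt1 at P0, Cdh5, Wnt7a, Wnt7b and Notch4 were chosen after their values were seen.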

Additional observations from a re-analysis of the deposited data

Results flagged for a closer look

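Of 144 gene and group pairs, 10 held a library whose gap to the nearest of the other 3 exceeded Dixon's 95% limit for 4 values, and chance gives about 1 in 20. In P7 cKO cortex these were Ly6c1 with 2.69 CPM in library 42 (others 0.507 to 0.782), Klf2 with 3.75 CPM in library 48 (others 4.28 to 4.31), Rgs5 with 281 CPM in library 41 (others 267.5 to 268.5) and Abcc9 with 28.4 CPM in library 44 (others 33.2 to 34.2). In P0 cKO cortex they were Cldn5 with 23.6 CPM in library 8 (others 20.98 to 21.4), Kdr with 35.2 CPM in library 8 (others 30.5 to 31.2) and Fli1 with 3.87 CPM in library 7 (others 5.70 to 5.97). In P0 control cortex they were Flt1 with 55.4 CPM in library 6 (others 24.6 to 29.8), Klf4 with 4.62 CPM in library 6 (others 1.81 to 2.04) and Slco1c1 with 181 CPM in library 2 (others 98.6 to 106). No P7 control value of a member was this far from its group. The P0 control values of Slc2a1 were spread too widely for its 89.8 CPM in library 6 to pass the limit.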

How the results depend on the processing

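Over the alternatives run, the count of members called stayed at 0 for the P7 genotype difference and for the interaction, and ran from 29 to 32 for age, where the reported count is 31. At P0 it was 0 but for DESeq2 and for 1 fit over all 16 libraries, with 1 each, Slc2a1. Leaving out each replicate in turn gave 0 members in each genotype comparison and 30 to 32 for age. Counts over the whole table moved more. In place of 32 genes at P0, there were 7 with no filter, 429 with DESeq2, 794 in 1 fit over all 16 libraries, 118 without P0 control libraries 2 and 6, and 4 to 136 when each replicate was left out. In place of 477 genes at P7, there were 175 in 1 fit over all 16 libraries and 281 to 496 when each replicate was left out. In place of 101 genes for the interaction, there were 54 with no filter, 285 with DESeq2, 175 without P0 control libraries 2 and 6, and 45 to 361 when each replicate was left out. The cause of these shifts was not tested, except that no filter adds genes to the adjustment and 1 fit pools the spread of both ages. Of the P7 calls 214 were higher and 263 lower, and with medians of ratios 155 were higher and 305 lower. For single members, 2315 values under alternatives kept the side of the threshold, 9 lost a call and 6 gained one. No paired analysis was run, since each library has its own number and these numbers give no pairing between groups. The depth leaves members under about 1 CPM, such as Ly6a and Higd1b at P7, without a test.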

Other observations

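Among members averaging 5 CPM or more in a group, the median coefficient of variation between libraries was 12.2% in P7 cKO and 7.99% in P7 control cortex, where all genes had 8.60% and 6.69%. At P0 it was 8.51% in cKO and 11.99% in control cortex, where all genes had 7.99% and 14.6%. Members and all genes were not matched for level, and some members had few reads, such as Cldn5 with 50 to 94 in P7 cKO libraries. The difference in spread is therefore not read as a trait of the members. The widest member was Tagln, at 49.6% in P0 control cortex. Markers of striatum, 12 genes, summed to 304 to 516 CPM in P7 cKO and 271 to 598 CPM in P7 control cortex, and their median log2 fold change was 0.50 with 0 called by limma, and 4 at an unadjusted p under 0.05. At P0 the same markers summed to 218 to 281 CPM in cKO and 237 to 396 CPM in control cortex, with a median log2 fold change of -0.48, negative in 12 of 12, and 0 called (1 at an unadjusted p under 0.05). The median of their interaction was 1.24, positive in 12 of 12, with 0 called (5 at an unadjusted p under 0.05). Over all genes 52.3% were positive at P0 and 53.2% in the interaction. The mean log2(CPM + 1) of these 12 markers ran from 2.77 to 4.18 in P0 control and from 3.04 to 4.61 in P7 control libraries. The 12 genes share the same libraries, so their signs are not independent. Slc7a5, a transporter of large amino acids at the barrier, was listed at 0 in all P0 libraries and had 34.0 to 44.1 CPM at P7.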
